A study of Mus musculus with 35 samples.

Results

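Transport proteins in the hepatocyte membrane bring drugs, hormones and bile acids into the liver cell and send their metabolites out into bile or blood. The transcripts of 9 such transporters were followed in mouse liver after a single styrene exposure, 4 uptake carriers of the Slco (OATP) family and 5 exporters of the ABC family. They are 9 of the 17097 genes that the arrays measure here. They were chosen by name, with earlier results of these data known, as Slco1a1, Slco1a4, Slco1b2, Slco2b1, Abcc2, Abcc3, Abcc4, Abcb1a and Abcg2. Probe sets whose platform annotation names 1 of these genes and no other were used, and the probe set with the highest mean over the 35 arrays stood for its gene.

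The 35 livers came from adult male wild-type C57Bl/6 mice, an inbred laboratory strain, with 5 mice and 5 arrays in each of 7 groups. The groups breathed air alone or styrene at 1, 5, 10, 20, 40 or 120 ppm, once, for 6 hours, and the livers were taken on the morning after. Styrene is a solvent vapour and plastics monomer that the liver oxidises to styrene oxide. No genotype other than wild type was used. A log2 value of 1 array was read per mouse, and the spread is therefore that between mice with the error of a single array in it.

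Uptake carriers of the OATP family sit in the sinusoidal membrane, which faces the blood, and take up bile acids, steroid conjugates and many drugs. Abcc2 and Abcg2 encode pumps of the canalicular membrane, which faces the bile, and Abcb1a encodes P-glycoprotein, which also pumps drugs there. The products of Abcc3 and Abcc4 export glucuronides, sulfates and bile acids back into the blood. In mouse liver, activators of the nuclear receptors CAR and PXR are known to raise Slco1a4, and activators of CAR and of NRF2, a transcription factor that responds to oxidants, are known to raise several Abcc genes.

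Of the 9 transporters, 4 rose at 40 ppm against air: the uptake carrier Slco1a4 (3.12-fold) and the exporters Abcc4 (1.68-fold), Abcc3 (1.64-fold) and Abcc2 (1.37-fold). At 120 ppm the exporters Abcc2, Abcc3 and Abcc4 rose again, each by between 1.40-fold and 1.42-fold, while Slco1a4, 2.76-fold higher, did not pass the test (adjusted p = 0.0558 in limma). None fell at any concentration, and at 1, 5, 10 and 20 ppm none passed. Slco1a1, Slco1b2, Slco2b1, Abcb1a and Abcg2 passed at no concentration by their main probe sets. By another probe set each, Slco1b2 and Abcb1a were called higher at 40 and 120 ppm, as given below. A call here is a limma p adjusted over 45037 probe sets by the Benjamini-Hochberg method that lies under 0.05. By that rule 15% of all genes were called at 40 ppm and 19.2% at 120 ppm, beside 4 and 3 of the 9 transporters. Called higher were 8.74% of all genes at 40 ppm and 11.2% at 120 ppm. The 9 were chosen with earlier results of these data known. These shares, and those given later, therefore do not test whether the 9 exceed other genes.

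Because Slco1a4, Abcc2 and Abcc4 were called at 40 ppm, their promoter windows are shown, with that of Slco1a1, a relative of Slco1a4 on the same chromosome that was not called. Each window holds 250 bases before and 50 bases after the annotated start, from RefSeq on GRCm38.p6, at chr6:141856171-141856470 (minus strand), chr19:43782058-43782357 (plus strand), chr14:118706170-118706469 (minus strand) and chr6:141946913-141947212 (minus strand). Capitals mark TGACNNNGC, the letters of the antioxidant response element that NRF2 binds, on either strand, written 5′ to 3′ along the gene.
Slco1a4: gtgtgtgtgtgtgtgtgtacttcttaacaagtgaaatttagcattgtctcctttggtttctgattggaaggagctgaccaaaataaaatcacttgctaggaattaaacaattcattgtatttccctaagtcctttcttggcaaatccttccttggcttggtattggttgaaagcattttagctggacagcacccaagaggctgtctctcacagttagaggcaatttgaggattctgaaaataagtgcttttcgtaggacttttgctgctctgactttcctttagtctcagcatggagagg
Abcc2: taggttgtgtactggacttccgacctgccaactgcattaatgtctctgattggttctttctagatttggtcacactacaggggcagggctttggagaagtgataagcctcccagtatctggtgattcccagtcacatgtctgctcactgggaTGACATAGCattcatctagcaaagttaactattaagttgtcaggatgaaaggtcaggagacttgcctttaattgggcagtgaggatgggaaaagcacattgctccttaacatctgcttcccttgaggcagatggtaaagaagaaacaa
Abcc4: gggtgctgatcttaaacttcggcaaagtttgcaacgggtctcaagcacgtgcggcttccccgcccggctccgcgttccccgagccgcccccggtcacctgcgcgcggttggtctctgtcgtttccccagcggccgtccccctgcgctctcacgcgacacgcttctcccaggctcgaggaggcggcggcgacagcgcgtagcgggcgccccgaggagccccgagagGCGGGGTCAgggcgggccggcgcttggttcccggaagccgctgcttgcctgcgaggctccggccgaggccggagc
Slco1a1: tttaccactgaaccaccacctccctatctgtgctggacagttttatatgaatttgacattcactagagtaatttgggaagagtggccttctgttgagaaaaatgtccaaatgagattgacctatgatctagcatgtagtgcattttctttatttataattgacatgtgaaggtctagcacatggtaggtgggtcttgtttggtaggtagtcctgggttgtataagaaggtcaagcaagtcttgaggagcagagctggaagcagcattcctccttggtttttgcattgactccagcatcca
The RefSeq promoter table held a window for 8 of the 9 transporters, all but Abcc3, and the window farthest upstream was taken where a gene had more. TGACNNNGC was found in the windows of Abcc2, 98 bases before the start, of Abcc4, 25 bases before it, and of Abcb1a, 26 bases after it, and in 12.4% of 27025 windows in all. AGGTCA, the hexamer bound by many nuclear receptors, was found in the windows of Slco1a1, Slco1b2, Abcc2 and Abcg2 and in 16% of all windows. CACGTG, the E-box of the clock proteins, was found in that of Abcc4 and in 7.24% of all windows. TTATGNAA, the D-box, was found in that of Abcg2 and in 3.53%, and GCGTG, the core of the AhR element, in that of Abcc4 and in 32.5%. Both strands were searched for each motif, and no matches overlapped in these windows, although AGGTCA read on the other strand shares its TGAC with the first motif. The matches are letters in a short window and show neither binding nor use.

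**Figure D1:**
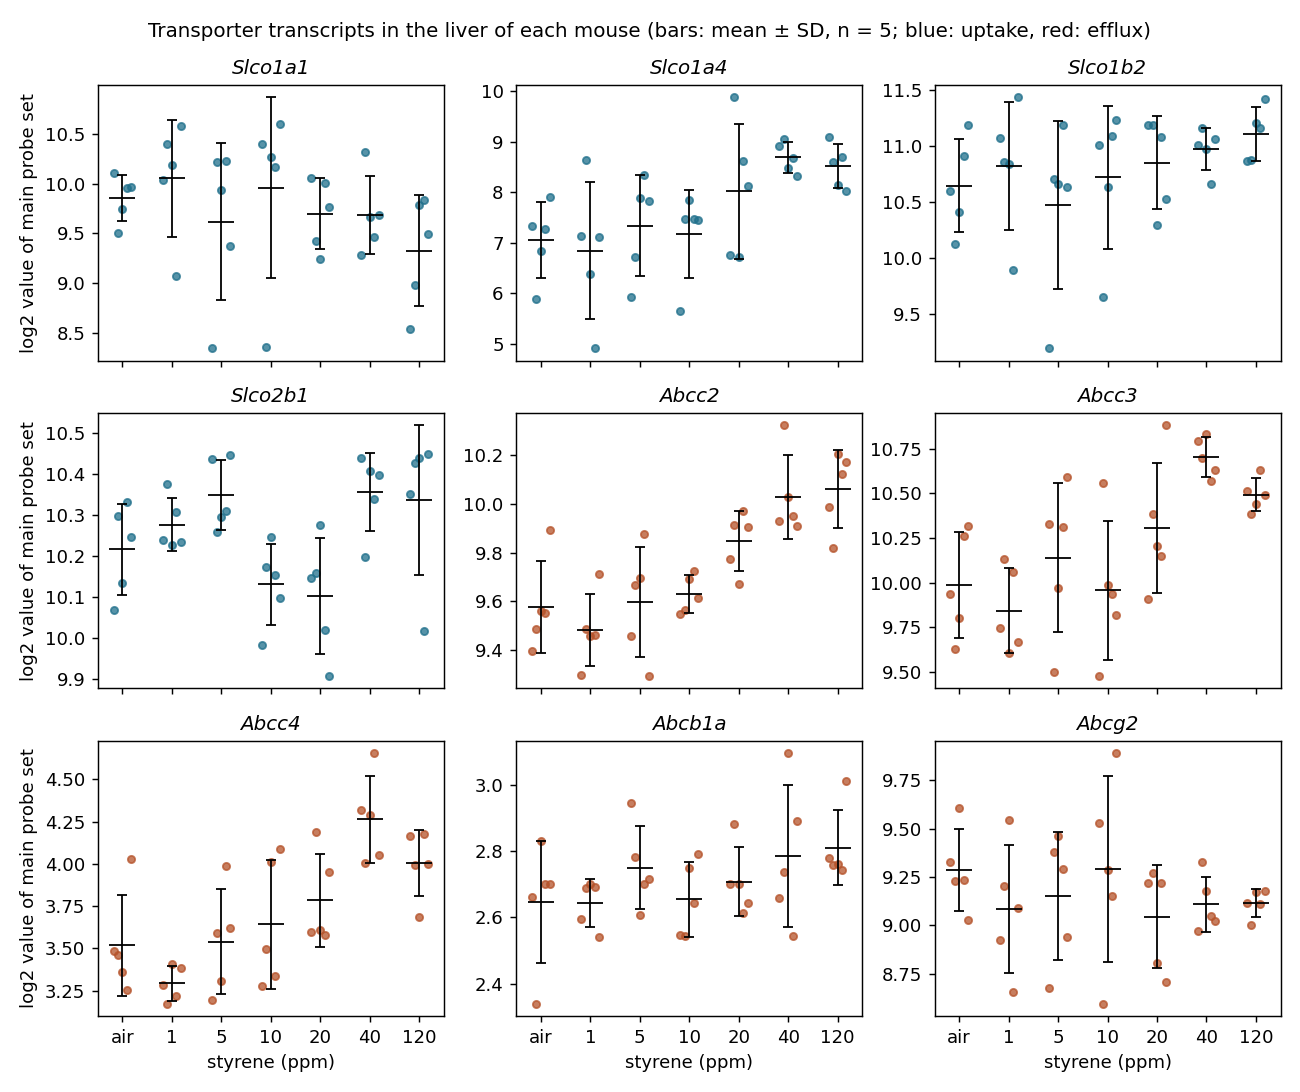
Each panel plots the log2 value of 1 transporter's main probe set (vertical axis, own scale) against the styrene concentration in ppm (horizontal axis, evenly spaced), with 1 point per mouse and the mean ± SD of 5 mice. At 40 ppm all mice lie above all air mice in Slco1a4, Abcc2 and Abcc3, and Slco1a1 and Abcg2 show no such step.

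Slco1a4, an uptake carrier of bile acids, cardiac glycosides and steroid conjugates, had the widest range of group means, 1.86 on the log2 scale. Its log2 values were 7.33, 5.89, 6.83, 7.28 and 7.91 in the air mice and 6.75, 9.88, 6.72, 8.62 and 8.13 in the 20 ppm mice. They were 8.92, 9.06, 8.48, 8.67 and 8.33 in the 40 ppm mice and 9.11, 8.61, 8.15, 8.69 and 8.02 in the 120 ppm mice. Every mouse at 40 and at 120 ppm lay above every air mouse, while at 20 ppm 2 mice lay within the air range and the other mice above it. At lower concentrations, 1 ppm replicate 2 (8.65) and 5 ppm replicate 4 (8.35) also lay above every air mouse and within the range of the 40 ppm mice. The change at 40 ppm was 1.64 ± 0.55 (SE of the fit, adjusted p = 0.0395) and that at 120 ppm 1.47 ± 0.55. At 20 ppm it was 0.97, with a 95% interval from -0.14 to 2.08 (adjusted p = 0.504). Over all 7 groups its means ran, from low to high, 1 ppm, air, 10 ppm, 5 ppm, 20 ppm, 120 ppm and 40 ppm.

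The spread of Slco1a4 between mice was not even over the groups. Its SD over 5 mice was 0.75 in air, 1.36 at 1 ppm, 1.00 at 5 ppm, 0.87 at 10 ppm and 1.34 at 20 ppm, but 0.30 at 40 ppm and 0.44 at 120 ppm. No test of the spread was made. The test pools the spread of all 7 groups, and a fit to the air and 120 ppm mice alone gave the change at 120 ppm an adjusted p of 0.0057 in limma. The call at 40 ppm was lost when any 1 of its arrays other than air replicate 5 was left out. The adjusted p was then 0.0509, 0.117, 0.0805 and 0.0557 without air replicates 1, 2, 3 and 4, and 0.0742, 0.0787, 0.0564, 0.0612 and 0.0533 without 40 ppm replicates 1 to 5. Without air replicate 5 the change at 120 ppm was called as well (adjusted p = 0.0404).

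The changes of the other uptake carriers, read by their main probe sets, did not pass the test. Slco1a1, a carrier that is more abundant in male than in female mouse liver, averaged 9.33 ± 0.56 at 120 ppm and 9.85 ± 0.23 in air (SD, n = 5 each). Its difference of -0.53 had an interval from -1.23 to 0.17 (adjusted p = 0.288 in limma). Slco1b2, a liver carrier of bile acids and drugs, averaged 11.11 ± 0.24 at 120 ppm and 10.65 ± 0.42 in air, a difference of 0.46 with an interval from -0.13 to 1.06. Slco2b1, a carrier of sulfated steroids that many tissues express, had group means between 10.10 at 20 ppm and 10.36 at 40 ppm. Its interval at 120 ppm, from -0.05 to 0.29, was the narrowest of the uptake carriers there. Over all 7 groups Slco2b1 gave an adjusted p of 0.0511 in the F test.

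**Figure D2:**
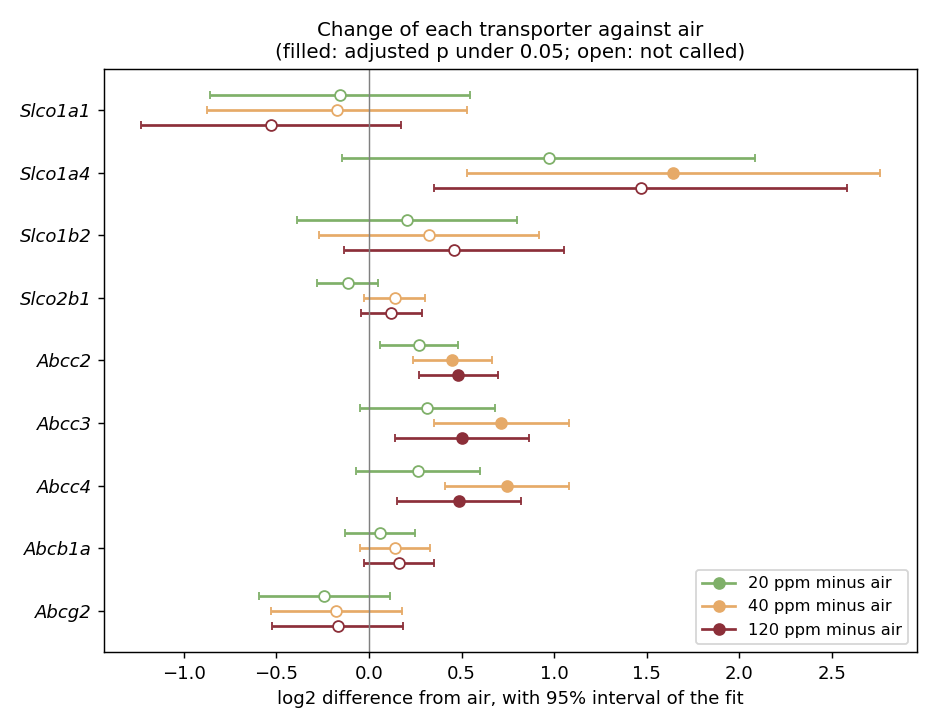
The horizontal axis gives the log2 difference from air with its 95% interval for 20, 40 and 120 ppm, and the rows are the 9 transporters, with filled points for adjusted p under 0.05. The intervals of Slco1a4 are the widest. At 40 and 120 ppm those of Slco1a4, Abcc2, Abcc3 and Abcc4 lie above 0, with Abcc2 at 0.24 to 0.66 and 0.27 to 0.69. The interval of Abcc2 at 20 ppm (0.06 to 0.48) does so too. The intervals are not adjusted for the number of tests, and Slco1a4 at 120 ppm and Abcc2 at 20 ppm were not called.

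Abcc2, the canalicular pump for bilirubin glucuronides and glutathione conjugates, rose with the smallest p of the 9 over all groups (F test, adjusted p = 0.000136). Its log2 values were 9.40, 9.49, 9.56, 9.55 and 9.89 in the air mice and 9.78, 9.91, 9.67, 9.97 and 9.91 in the 20 ppm mice. They were 9.93, 10.32, 10.03, 9.95 and 9.91 in the 40 ppm mice and 9.99, 9.82, 10.20, 10.12 and 10.17 in the 120 ppm mice. All mice at 40 ppm lay above all air mice, and at 120 ppm replicate 2, at 9.82, lay under the highest air mouse. The change was 0.45 ± 0.10 at 40 ppm (adjusted p = 0.00378) and 0.48 ± 0.10 at 120 ppm (adjusted p = 0.00168). At 20 ppm it was 0.27, with an unadjusted p of 0.0139 and an adjusted p of 0.245 in limma. Its group means, from low to high, were those of 1 ppm, air, 5, 10, 20, 40 and 120 ppm.

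Abcc3, the sinusoidal exporter of glucuronides, rose most at 40 ppm. Its log2 values were 9.94, 9.63, 9.80, 10.26 and 10.32 in the air mice and 9.91, 10.38, 10.20, 10.15 and 10.88 in the 20 ppm mice. They were 10.79, 10.70, 10.83, 10.57 and 10.63 in the 40 ppm mice and 10.51, 10.39, 10.44, 10.63 and 10.49 in the 120 ppm mice. No mouse at 40 or 120 ppm overlapped the air group. The change was 0.72 ± 0.18 at 40 ppm (adjusted p = 0.00693) and 0.50 ± 0.18 at 120 ppm (adjusted p = 0.0445). At 120 ppm the call lay near the threshold. It was lost without any 1 array of the 120 ppm group (adjusted p from 0.0545 to 0.092 in limma). It was lost too without air replicate 1, 2 or 3 (0.0733, 0.128 and 0.107). The SD over mice was 0.11 at 40 ppm and 0.09 at 120 ppm, and between 0.24 and 0.42 in the other groups.

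Abcc4, an exporter of bile acids, sulfated steroids and cyclic nucleotides, was read by a dim probe set, with a mean of 3.72 over all arrays. Its log2 values were 3.49, 3.46, 3.36, 3.25 and 4.03 in the air mice and 3.59, 4.19, 3.61, 3.58 and 3.95 in the 20 ppm mice. They were 4.32, 4.01, 4.29, 4.65 and 4.05 in the 40 ppm mice and 4.16, 3.99, 3.69, 4.18 and 4.00 in the 120 ppm mice. Of the air mice only replicate 5, at 4.03, reached the range of the 40 ppm mice. Within that range too lay 10 ppm replicates 3 (4.01) and 5 (4.09), 20 ppm replicate 2 (4.19) and 120 ppm replicates 1 (4.16) and 4 (4.18). The change was 0.75 ± 0.16 at 40 ppm (adjusted p = 0.00262) and 0.49 ± 0.16 at 120 ppm (adjusted p = 0.0347). The call at 120 ppm was lost without 120 ppm replicate 1, 2, 4 or 5 (adjusted p from 0.0535 to 0.0811 in limma) or without air replicate 1, 2, 3 or 4 (from 0.0573 to 0.0931), and under a second quantile normalization (0.109). A probe set this dim can understate a change, and a mean under 5 marks such probe sets here.

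Abcg2, a canalicular pump of sulfate conjugates and drugs, averaged 9.12 ± 0.07 at 120 ppm and 9.29 ± 0.21 in air (SD, n = 5 each). Its difference of -0.17 had an interval from -0.52 to 0.18 (adjusted p = 0.519 in limma). Abcb1a had its main probe set at a mean of 2.71, near the bottom of the deposited range, and averaged 2.81 ± 0.11 at 120 ppm and 2.65 ± 0.18 in air. Its second probe set, at a mean of 2.67, was called higher by 0.49 at 40 ppm (adjusted p = 0.004) and by 0.56 at 120 ppm (adjusted p = 0.000978). The 2 probe sets of Abcb1a thus disagree, and both are dim.

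In all, 17 probe sets named a transporter alone. Of the 8 that did not stand for their gene, 1 each of Slco1b2 and Abcb1a were called at 120 ppm, and none of Slco1a1 or Slco2b1. The called Slco1b2 probe set had a mean of 4.00 and rose by 0.82 (adjusted p = 0.000453). Another Slco1b2 probe set, at a mean of 10.77, had 0.59 (adjusted p = 0.0542). Their slopes over concentration were called, at 0.11 (adjusted p = 0.000132) and 0.08 (adjusted p = 0.0169), and the first was called at 40 ppm as well (0.49, adjusted p = 0.0284). The second Slco1a1 probe set, at 9.01, had -0.80 at 120 ppm (adjusted p = 0.113), while its slope over concentration was called (-0.12, adjusted p = 0.0302). Slco1a4, Abcc2, Abcc3, Abcc4 and Abcg2 had 1 probe set each, so no second reading of them was available.

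No member was called between neighbouring concentrations of 20 and 10 ppm, 40 and 20 ppm, or 120 and 40 ppm, where 0.474%, 0.339% and 0.0409% of all genes were. At an unadjusted p under 0.05 the counts were 1, 3 and 0 of the 9 in limma, beside 4473, 6178 and 2513 of 45037 probe sets. Between 40 and 20 ppm Abcc4 had 0.48 (adjusted p = 0.179), Abcc3 0.40 (adjusted p = 0.313) and Slco2b1 0.25 (adjusted p = 0.145). Between 120 and 40 ppm the interval of Abcc3 ran from -0.58 to 0.15 and that of Abcc4 from -0.59 to 0.08.

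At 20 ppm 1.46% of all genes were called, and at 1, 5 and 10 ppm 0%, 0.0526% and 0%. Of the 9 transporters none was called at these concentrations. An unadjusted p under 0.05 was reached by 1 at 20 ppm and by 0 at the others in limma. Of 45037 probe sets, 5472 reached it at 20 ppm, and 2534, 3189 and 2871 at 1, 5 and 10 ppm. Groups that did not overlap were counted too. At 40 ppm 3 of the 9 did not overlap with air, beside 13.6% of all genes, and at 120 ppm 2 of the 9, beside 14.4%.

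Across all groups 4 of the 9 passed the F test, namely Slco1a4 (adjusted p = 0.0363), Abcc2, Abcc3 (adjusted p = 0.00319) and Abcc4 (adjusted p = 0.000664), beside 21.5% of all genes. Slco1a4 passed the F test in 26 of the 35 fits that left out 1 array, and its call was lost (adjusted p up to 0.0658 in limma) without air replicate 3, 1 ppm replicate 3, 40 ppm replicates 1, 2, 3 or 4, or 120 ppm replicates 1, 2 or 4. A slope on log2(ppm + 1) was called for these 4 as well, beside 33% of all genes. The slopes on the log2 scale were 0.27 ± 0.06 for Slco1a4, 0.09 ± 0.01 for Abcc2, 0.11 ± 0.02 for Abcc3 and 0.11 ± 0.02 for Abcc4 (SE, adjusted p from 9.46e-06 to 0.00154 in limma). Slco1a1 had -0.08 ± 0.04 (adjusted p = 0.146). The median change of the 9 was 0.33 at 40 ppm and 0.46 at 120 ppm, and that of all genes 0.02 and 0.04.

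Of all arrays, that of 5 ppm replicate 1 correlated least with the others (mean r = 0.975 over all probe sets), followed by that of 10 ppm replicate 2 (0.983). Several transporters were low in these mice, though not in these alone. In 5 ppm replicate 1 Slco1a1 was 8.35, Slco1b2 9.19 and Abcg2 8.68, each the lowest of its group, and 5 of the 9 transporters were lowest there. In 10 ppm replicate 2 Slco1a1 was 8.36, Slco1b2 9.65 and Abcg2 8.59, and 4 of the 9 were lowest. Air replicate 2 and 10 ppm replicate 1, whose mean correlations were 0.988 each, also held the lowest value of 5 transporters. The mean of 11 hepatocyte markers was 12.72 in 5 ppm replicate 1 and 12.74 in 10 ppm replicate 2, in each case the lowest of its own group as well, and its part in the low transporter values was not tested. Without 5 ppm replicate 1 the F test still called Slco1a4 (adjusted p = 0.0296), Abcc2, Abcc3 and Abcc4, and so did the slope. Without any 1 of 9 other arrays, Slco1a4 no longer passed the F test.

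The 3 genes likest to each called transporter were found by the distance between 7 group means, each gene centred on its own mean, among 3680 other genes that passed the F test. For Slco1a4 they were Nr1i3, which encodes the receptor CAR (root mean square distance 0.14), Aqp4, a water channel, and Prox1, a transcription factor of hepatocytes and lymphatic vessels. Nr1i3 had group means of 8.62 in air, 8.59, 8.68 and 8.67 at 1, 5 and 10 ppm, 9.73 at 20 ppm, 10.07 at 40 ppm and 10.10 at 120 ppm. No other gene lay within 0.1 of Slco1a4, whereas 581 lay within 0.1 of Abcc2, whose steps are small. The pooled SD of Slco1a4 over mice, 0.94, far exceeded the distances of its 3 likest genes. Whether their likeness to it is more than sampling error was not tested. The likest to Abcc2 were Phka2, a subunit of phosphorylase kinase, Atg16l1, of autophagy, and Cryzl1. For Abcc3 they were Slc10a3, Hyi and 1700018L02Rik, and for Abcc4 Rbfox3, 4833438C02Rik and Stap1, all at a distance of 0.07.

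**Figure D3:**
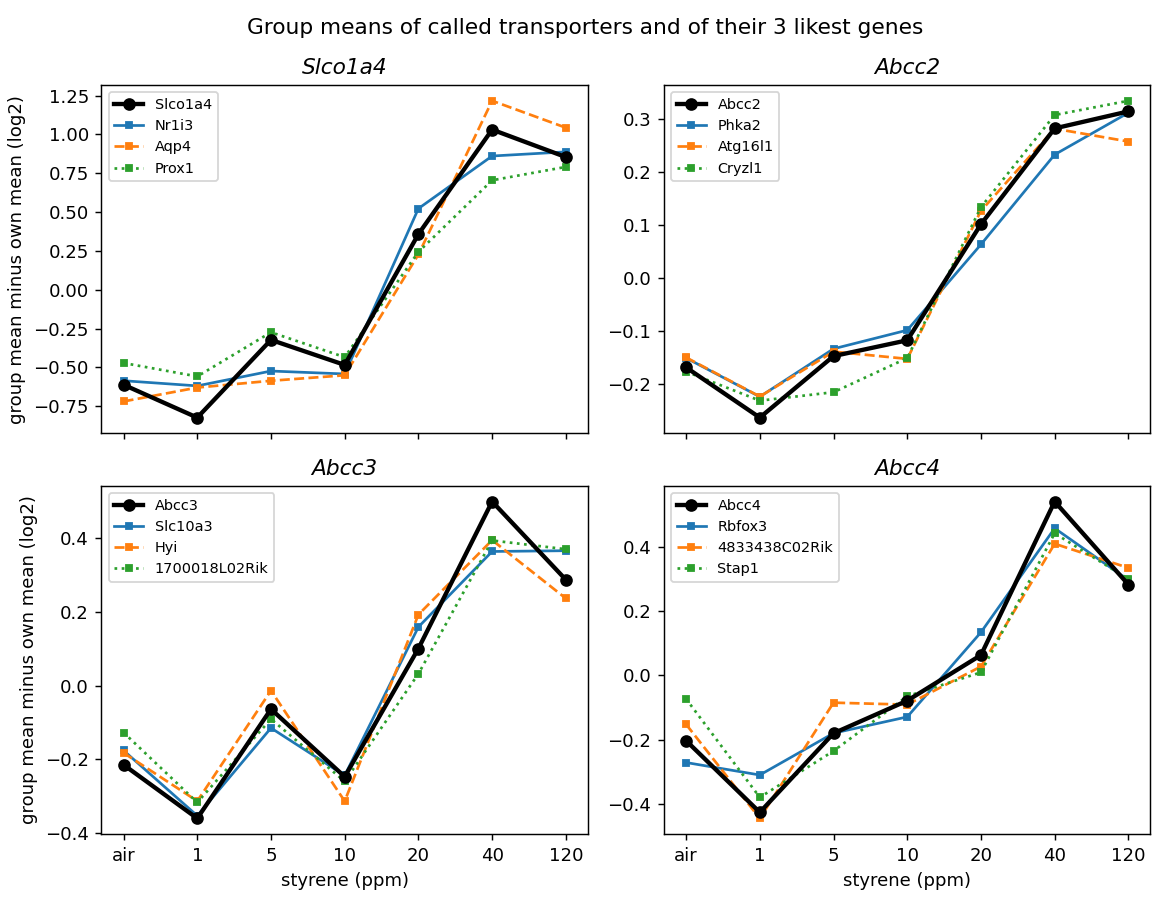
Each panel plots the group means of 1 called transporter (black) and of its 3 likest genes against the styrene concentration in ppm, each centred on its own mean over the 7 groups (log2 scale). In Slco1a4 and Nr1i3 the means at 40 and 120 ppm lie above those from air to 10 ppm. Before centring, the latter ran from 6.84 to 7.34 in Slco1a4 and from 8.59 to 8.68 in Nr1i3. At 20 ppm Nr1i3 was called against air (1.11, adjusted p = 0.00707 in limma) and Slco1a4 was not (0.97, adjusted p = 0.504).

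Other transporters of the liver moved both ways at 120 ppm. Of 10 measured other Slco genes none rose and 1 fell, Slco2a1, a prostaglandin carrier of endothelial cells, with a change of -0.73 (log2, adjusted p = 0.000112 in limma). Of 15 genes of the Slc22 and Slc47 families 2 rose and 3 fell. Slc22a7, a hepatic carrier of organic anions, fell by 1.46 ± 0.31 (log2, SE, adjusted p = 0.00163) and Slc22a30, of the same family, fell by 1.05 ± 0.24 (adjusted p = 0.00295), while Slc22a26 rose by 0.70 at a dim probe set. Of 18 other Abcb, Abcc and Abcg genes 2 rose and 1 fell: Abcg5, which with Abcg8 exports sterols, rose by 0.77 (adjusted p = 0.00805), Abcc10 rose by 0.54 at a dim probe set (mean 3.77) and Abcb10, of mitochondria, fell by 0.33 (adjusted p = 0.0394). Of 5 bile acid and lipid carriers 1 rose, Slc10a1, the sodium-dependent bile acid carrier, by 0.41 (adjusted p = 0.0241). The medians of these 4 lists were 0.02, 0.09, 0.06 and 0.18, beside 0.04 over all genes. Of all genes 19.2% were called at 120 ppm, with 11.2% called higher, and the lists were not tested against these shares.

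Among 6 proteins that anchor transporters at the membrane none rose and 2 fell, Pdzk1, a PDZ scaffold, with -0.36 (log2, adjusted p = 0.00479 in limma), and Msn, moesin, with -0.30 (adjusted p = 0.043). Of 11 transcription factors known to act on transporter genes 3 rose and 1 fell at 120 ppm. Nr1i3 rose by 1.47 ± 0.20 (adjusted p = 1.14e-05), Nr1h4, the bile acid receptor FXR, by 0.89 ± 0.18 (adjusted p = 0.00104), and Stat5b, a mediator of growth hormone, fell by 0.77 (log2, adjusted p = 0.00112). The third that rose was Nr1i2, which encodes PXR, by 0.50 (adjusted p = 0.0209), named after its value was seen. Of 10 P450 genes listed here as targets of CAR and PXR 3 rose and 1 fell, and whether these receptors moved them was not tested. Cyp3a13 was higher by 1.32 (adjusted p = 0.000187) and Cyp2b9 by 0.86 at a dim probe set (mean 3.54). Cyp2c55 had a change of -2.44 (adjusted p = 0.000779). The third that rose, Cyp2b13, was dim too (mean 2.55), and Cyp3a11 (0.24, adjusted p = 0.45) and Cyp2b10 (0.33, adjusted p = 0.699), neither of them dim, did not pass; these 3 were named after their values were seen. Of 11 NRF2 targets none rose and 5 fell at 120 ppm, among them Gsta4 (-1.04), the glutathione transferase Gstm3 (-1.25) and Gclc (-0.65), of glutathione synthesis. Their median was -0.31. At 40 ppm 1 of them rose and 3 fell, with a median of -0.12. The 1 that rose was Nqo1, a quinone reductase, by 0.56 (adjusted p = 0.0337), with 0.50 at 120 ppm (adjusted p = 0.0516), and it was named after its values were seen. Beside the counts of all these lists, 15% of all genes were called at 40 ppm and 19.2% at 120 ppm. The lists were not tested against these shares.

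**Figure D4:**
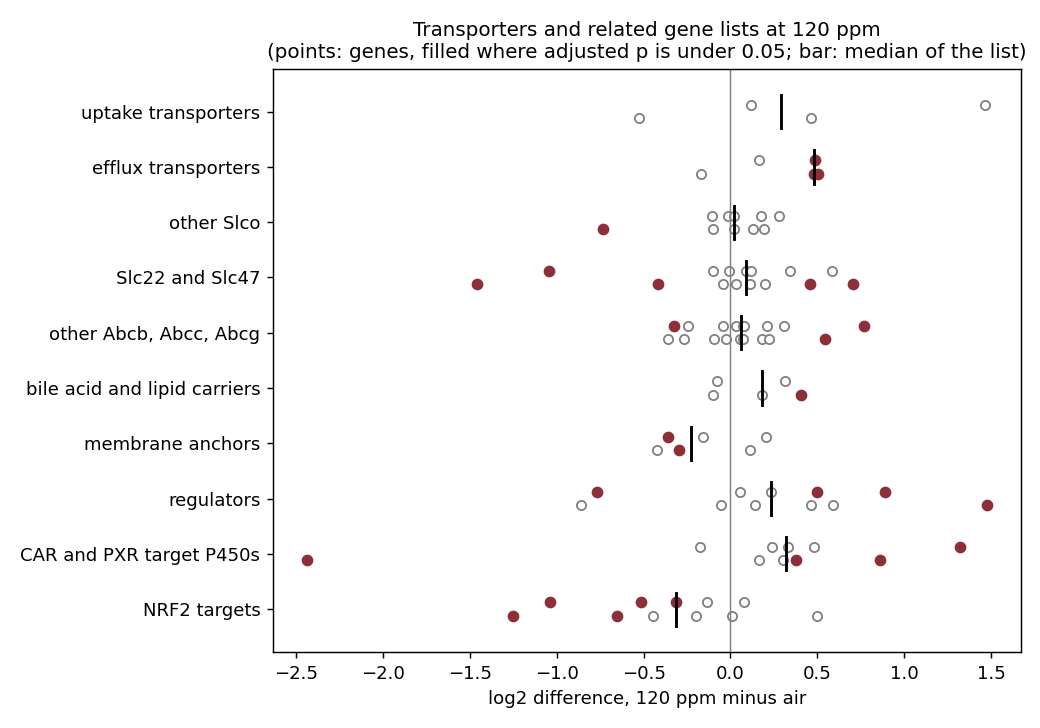
The horizontal axis gives the log2 difference between 120 ppm and air for each measured gene, and the rows are the uptake and efflux transporters and 8 related lists, with filled points for adjusted p under 0.05 and a bar at each median. The called efflux transporters lie together near 0.5, and the called Slc22 and Slc47 genes lie on both sides of 0.

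Some measures of the arrays moved along with these changes. The array median lay 0.07 higher at 40 ppm and 0.09 higher at 120 ppm than in air on the log2 scale. With each array centred on its median, the call of Slco1a4 at 40 ppm held (1.57, adjusted p = 0.0492), as did those of Abcc2 at 40 and 120 ppm. Those of Abcc3 (0.41, adjusted p = 0.101) and Abcc4 (0.39, adjusted p = 0.0892) at 120 ppm ended. The actin control's log2 signal at its 3' end less that at its 5' end, a reading of RNA integrity and labelling, ranged from 0.60 to 0.79 at 40 ppm and from 0.65 to 0.79 at 120 ppm, above the range of 0.44 to 0.55 in air. At 20 ppm it ranged from 0.61 to 0.85, also above air. No transporter was called there, and Slco1a4, Abcc2, Abcc3 and Abcc4 had changes of 0.97, 0.27, 0.32 and 0.27. The part of this actin reading in the results was not tested and cannot be told apart from that of the concentration.

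Cell type markers were read as well. All 11 measured hepatocyte markers had means of at least 10.08, with Alb at 13.93, and their mean was 12.75 to 12.86 at 120 ppm and 12.69 to 12.76 in air. Of these, 2 rose at 120 ppm and none fell. Of 11 Kupffer cell markers 6 fell and none rose, and their mean was 6.49 to 7.12 at 120 ppm and 6.97 to 7.98 in air. Of 11 endothelial markers 3 fell, of 10 stellate cell markers 2, and of 7 bile duct markers none. Of 9 neutrophil markers 1 rose. Of all genes 19.2% were called at 120 ppm, and the marker counts were not tested against that share. In a piece of whole liver, fewer cells of a type and less RNA per cell cannot be told apart, and the part of cell makeup in the transporter results was not tested. Of 9 genes higher in male liver, 5 were lower at 120 ppm, with a median of -0.53, beside the same 19.2% of all genes called.

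The order of the animals within a group was asked of the data too, since replicate numbers follow the animal numbers. None of the 9 transporters followed it (limma, adjusted p from 0.413 to 0.991, and 0 at an unadjusted p under 0.05), beside 3.11% of all genes. Between groups the animal numbers rose with the concentration, so animal order there cannot be told apart from it.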

How the data were processed

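RNA from the livers of 35 mice was read on Affymetrix 3' IVT arrays, 1 per mouse. Per the submitters' processing notes, RMA and Partek were used, with no version, role or order given. The deposited values are on a log2 scale, the base being taken as 2 from their range of 1.74 to 14.23. Of 45141 probe sets, 104 controls were left out of the tests. The platform annotation named a single gene for 28898 probe sets, several for 551 and none for 15588, and RefSeq identifiers changed 0 symbols. Using R 4.3.3 and limma 3.58.1, a mean per group was fitted to all 35 arrays with 28 residual and 5.41 prior degrees of freedom. Tests were two-sided. Adjustment followed Benjamini and Hochberg, over 45037 probe sets, and the limma steps were tested on simulated data. The number of arrays limits the precision. Genes were named by rule: the 9 transporters, up to 3 called genes of each related list with the smallest p at 120 ppm, and the 3 genes likest to each transporter that passed the F test. Nr1i2, Nqo1, Cyp2b13, Cyp3a11 and Cyp2b10 were named outside this rule. The transporters and lists were chosen with earlier results of these data known. Alternatives covered the scaling of arrays, a filter on dim probe sets, the prior, array weights, the replicate block, animal order, the samples fitted, the probe sets, the scale of concentration and each array left out.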

Additional observations from a re-analysis of the deposited data

Results flagged for a closer look

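Each of the 9 transporters was looked at in each of the 7 groups, which makes 63 sets of 5 values. Of these, 6 held 1 mouse far from the other mice of its group by Dixon's test at the 95% level. Chance flags about 1 in 20 of independent sets, but these sets share the same mice and are not independent. In 5 ppm replicate 1 Slco1b2 was low at 9.19, with the next mouse at 10.63. In 10 ppm replicate 2 Slco1a1 was low at 8.36, with the next at 10.17, and in 10 ppm replicate 1 Slco1a4 was low at 5.65, with the next at 7.45. Slco2b1 was low in 120 ppm replicate 4, at 10.02 with the next mouse at 10.35, and without that mouse it passed the F test (adjusted p = 0.00901 in limma). Abcc2 was high in 40 ppm replicate 2, at 10.32 with the next mouse at 10.03, and without it the change at 40 ppm was still called (0.38, adjusted p = 0.0168). Abcb1a was high in 120 ppm replicate 5, at 3.01 with the next mouse at 2.78, both at the dim end of the range.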

How the results depend on the processing

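No called change of a transporter turned its sign under any alternative run. Abcc2 passed at 40 and 120 ppm under all 19 alternatives each, and Abcc3 at 40 ppm under all 19. Abcc4 passed at 40 ppm under all 18, the filter on dim probe sets having left it out. These counts and those of the next 2 sentences include the mean of all probe sets of a gene. That setting only repeats the main values of Slco1a4, Abcc2, Abcc3 and Abcc4, which have 1 probe set each. At 120 ppm Abcc3 passed under 10 of 19 (adjusted p from 0.0149 to 0.128) and Abcc4 under 8 of 18 (0.00953 to 0.109). Slco1a4 passed under 10 of 19 at 40 ppm (0.00199 to 0.117) and under 3 of 19 at 120 ppm. With arrays centred on their median the count of called transporters at 120 ppm was 1. Leaving out 1 array gave counts from 1 to 4 at 120 ppm, from 3 to 4 at 40 ppm, from 3 to 5 for the F test and from 4 to 5 for the slope. The count of 1 came on leaving out air replicate 1, 2 or 3, or a 120 ppm mouse, replicate 1, 2, 4 or 5. Abcc3 then gave an adjusted p of 0.0733, 0.128, 0.107, 0.0718, 0.0545, 0.092 and 0.0672, and Abcc4 0.0573, 0.0647, 0.0846, 0.0766, 0.0537, 0.0811 and 0.0535. Abcc3 was also lost without 120 ppm replicate 3 (0.0632), and Abcc4 without air replicate 4 (0.0931) and with a second quantile normalization (0.109). In the F test Slco1a4 gave 0.0516 with centring and passed in 26 of 35 fits without 1 array, and Slco2b1 passed under 4 alternatives other than a left-out array (0.0336 to 0.0492). With array weights the slopes of Slco1a1 (-0.08, adjusted p = 0.0475) and Abcb1a (0.03, adjusted p = 0.0419) passed. The mean of both Abcb1a probe sets passed at 40 ppm (0.31, adjusted p = 0.00419) and 120 ppm (0.36, adjusted p = 0.000983). Same-numbered arrays of different groups were not paired in these data (correlations of deviations from -0.39 to 0.37, median 0.03), and the replicate block changed no call: 4 transporters at 40 ppm and 3 at 120 ppm. The causes of these shifts were not tested. Signal near background limits Abcc4 and Abcb1a.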
